A study of Mus musculus with 9 samples.

Results

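The 46 genes described here are mouse interferon-stimulated genes together with genes of MHC class I antigen presentation. They were taken by name, with no threshold on their values, out of 23337 genes counted. All 46 were found in the count table, 45 under the listed symbol and Ifi27 under its older symbol Ifi27l1. Interferons are secreted proteins that bind receptors on the cell surface and, through JAK kinases and STAT transcription factors, switch on a shared set of antiviral genes. Many of these genes carry an interferon-stimulated response element in their promoter, and fibroblasts keep a low tonic level of several of them without infection. MHC class I molecules display peptides, cut by the proteasome and carried into the endoplasmic reticulum by the TAP transporter, to cytotoxic T cells, and interferon raises most components of this route.

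The libraries were made from immortalised mouse embryonic fibroblasts (MEFs) of C57BL/6 x 129 background. The MEFs are Cebpb-ko, so all groups, the control included, lack the endogenous transcription factor C/EBPβ. They stably carried rat C/EBPβ-LAP (the long isoform with its transactivation domains), rat C/EBPβ-LIP (the short isoform without them) or an empty vector (EV), under Zeocin selection, with 3 libraries in each group and 9 in all. The comparisons address what each isoform does to the transcriptome of cells that otherwise have neither. Whether a line was a clone or a pool of transfected cells, and whether the libraries of a group came from separate cultures, is not given in the sources used here. P-values therefore measure the spread between these libraries, which may be technical.

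Each library held between 24839139 and 33522082 counts. Reads counted on Cebpb came to between 25.2 and 30.5 CPM (counts scaled to a common library size) in EV, 25.5 and 33.2 in LAP and 28.3 and 33.3 in LIP, so this gene did not separate the labels. Of the fibroblast markers, the collagen genes and Vim were abundant in every library, while Pdgfrb had only 3 to 56 counts. The summed CPM of the 6 markers was lower in LIP (10264 to 19800) than in EV (25271 to 27823). Its range in LIP touched that of LAP (19546 to 30914). The markers did not move alike. Vim averaged 4556 CPM in EV, 4576 in LAP and 4348 in LIP, while each of the others had a clearly lower mean in LIP than in EV. The macrophage and leukocyte markers summed to 7.05 to 8.99 CPM in EV, 9.99 to 11.3 in LAP and 6.49 to 10.8 in LIP. Ptprc was at 0 counts in all 9 libraries and Emr1 at 1 count or fewer. Within this sum Cd68 averaged 3.30 CPM in EV and 5.35 in LIP, while Cd14 averaged 3.39 and 2.07 and Csf1r 1.13 and 0.88. Endothelial markers summed to between 1.54 and 3.64 CPM, and epithelial markers, almost all of it Krt14, to between 83.0 and 247 CPM. The part of these marker levels in the results below was not tested, and in bulk RNA fewer cells of a kind and less RNA per cell cannot be told apart.

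Of the 46 genes, 29 had a mean of at least 20 counts over the 9 libraries. Another 12 lay lower, with between 0 and 40 counts in a library (Ifih1, Zbp1, Irf1, Irf9, Ifit3, Oasl2, Rsad2, Ifitm1, Usp18, Ifi44, Psmb8 and Tap1). The other 5 (Irf7, Mx1, Mx2, Iigp1 and Psmb9) had 3 counts or fewer in every library, which is the floor used here. Mx1 and Mx2 encode antiviral GTPases and Irf7 the transcription factor that amplifies type I interferon production, and none of them was detectable above this floor in any group. Of the 46 genes, 17 have more than 1 curated RefSeq transcript, and in this table such genes had lower values as a class. Protein-coding genes averaging at least 20 counts had a median of 41.6 CPM where RefSeq curates 1 transcript (5425 genes) and 17.5 CPM where it curates more (4574 genes). How reads shared by several transcripts were counted is not given in the sources used here. In the results below levels are therefore compared only within a gene. The marker levels and sums above set different genes beside each other and carry this limit.

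**Figure D1:**
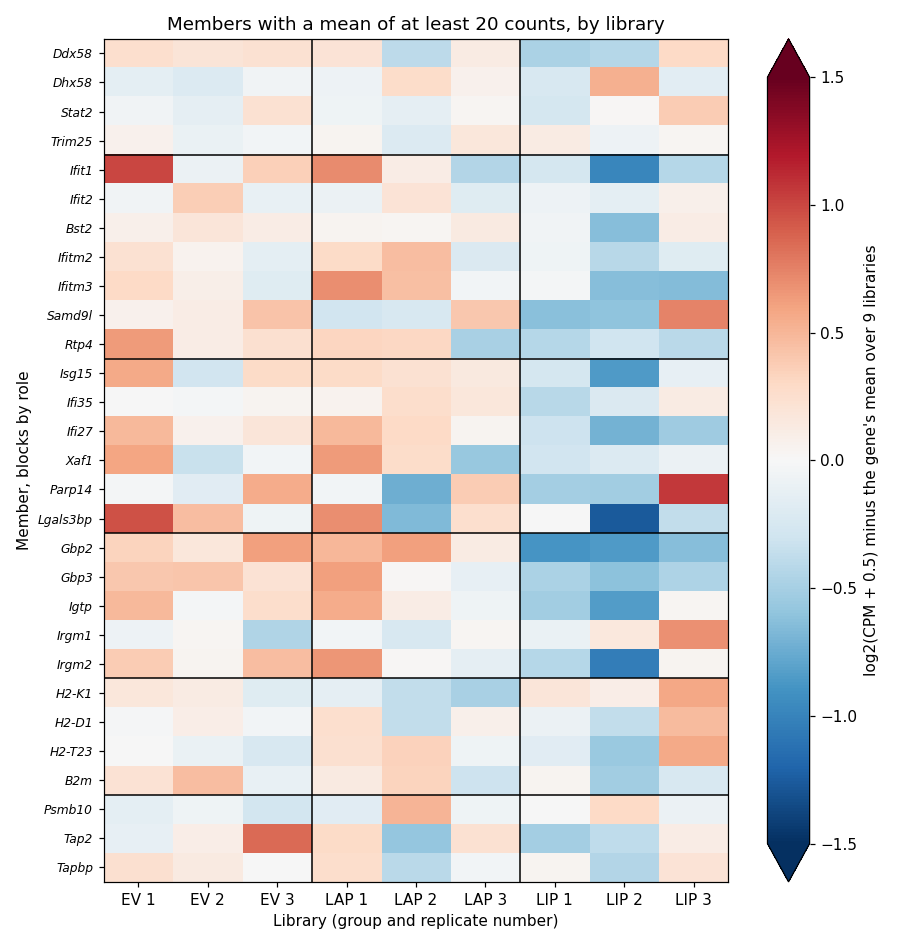
Heat map of the 29 members averaging at least 20 counts (vertical axis, black lines between roles) in the 9 libraries (horizontal axis). Colour gives log2(CPM + 0.5) minus the gene's mean over the 9 libraries, blue below and red above that mean. LIP 1 and LIP 2 are mostly blue, while LIP 3, with a median deviation of 0.03, is closer to the EV and LAP libraries.

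In LIP the interferon-stimulated genes tended to lie below EV, while the MHC class I chains were mixed. Of the 46 genes, 36 had a log2 fold change below 0 in LIP against EV and 10 above it. The median log2 fold change was -0.46 over the 46 genes and -0.39 over the 41 above the floor, of which 31 were below 0. Over the 29 better counted genes it was -0.29. Over all 18203 genes tested the median was 0.04. In edgeR (quasi-likelihood test, with p-values adjusted over all genes tested after Benjamini and Hochberg), none of the 46 passed the threshold of 0.05 in either direction, where 0.33% of all genes passed as lower and 0.0659% as higher. At an unadjusted p under 0.05, 10 of the 46 were lower and 0 higher, beside 6.75% of all genes as lower and 4.23% as higher. With no overlap between the CPM of the 3 LIP and the 3 EV libraries, 9 were lower, 2 of these (Psmb8 and Psmb9) on 9 counts or fewer per library, and 0 were higher, beside 8.83% and 6.8% of all genes. DESeq2 called 1 gene lower, Gbp2, where it called 1.36% of all genes lower, and it also placed 10 of the 46 lower at an unadjusted p under 0.05, beside 5.8% of all genes.

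The libraries of a group did not hold these genes at 1 level. LIP 3 had the highest CPM of the LIP libraries for 19 of the 29 better counted genes (65.5%, against 36.0% of the 11535 genes with that mean), and LIP 2 had the lowest for 17 (58.6%, against 37.7%). EV 1 was the highest EV library for 14 (48.3%, against 28.4%) and LAP 1 the highest LAP library for 15 (51.7%, against 28.8%). Without LIP 3, 16 of the 46 lay lower than EV with an unadjusted p under 0.05, beside 8.15% of all genes in that fit, and the median was -0.76. There 2 genes passed the adjusted threshold (Gbp2, and Samd9l with a log2 fold change of -0.83 and an adjusted p of 0.0313 by edgeR), beside 1.29% of all genes as lower. Without EV 1, 6 were lower by unadjusted p, beside 4.61% of all genes, and the median was -0.37.

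Among these 46 genes LAP showed no comparable shift. Against EV, 29 genes were below 0 and 17 above, and the median log2 fold change was -0.10 (-0.07 over the 41 genes above the floor), with 0.02 over all 18156 genes tested. None of the 46 passed the adjusted threshold in edgeR or in DESeq2, where 0.033% of all genes passed as lower and 0.0275% as higher in edgeR. By unadjusted p (under 0.05) no gene was lower and 1 was higher, Ifitm1, in both tools, beside 1.34% and 1.93% of all genes. Without overlap between the groups, 0 genes were lower and 1 was higher, Ifi35, beside 3.61% and 3.96% of all genes. Ifitm1, a membrane protein that restricts virus entry, had 4, 6 and 2 counts in the EV libraries and 22, 23 and 1 in the LAP libraries. The third LAP library thus lay below all EV libraries, and without it the log2 fold change was 2.48 with an adjusted p of 0.0453 by edgeR, in a fit that called 0.23% of all genes higher.

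LIP was also compared with LAP directly, which shares the LIP libraries with the first comparison and the LAP libraries with the second. Here 43 of the 46 genes could be tested, 34 were below 0 and 9 above, and the median log2 fold change was -0.40 (-0.34 over the 41 genes above the floor), beside 0.02 over all 18166 genes tested. Gbp2 fell and passed the adjusted threshold as the only 1 of the 46, and 0 genes passed as higher, beside 0.837% of all genes as lower and 0.209% as higher. By unadjusted p (under 0.05) 6 lay lower (Ifit1, Oasl2, Ifitm3, Ifi27, Gbp2 and Gbp3) and 1 was higher (H2-K1), beside 5.98% and 3.3% of all genes. Without overlap, 5 genes were lower and 1 was higher, beside 6.9% and 5.91%. Libraries with the same replicate number deviated together in these 2 groups, and with the replicate number as a block Gbp2, Ifitm3, Ifi27 and Lgals3bp passed as lower. The block raised the calls over all genes as well, to 4.79% as lower and 1.72% as higher, so these 4 genes are to be read against that share. Without LAP 1, 2 of the 46 were lower by unadjusted p (4.56% of all genes), without LAP 3 there were 10 (6.3%) and without LIP 3 there were 11 (5.84%). Without LAP 1 the log2 fold change in LIP against LAP was nearer to 0 for several genes, at -0.83 for Gbp3, -0.61 for Ifit1 and -0.31 for Lgals3bp.

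**Figure D2:**
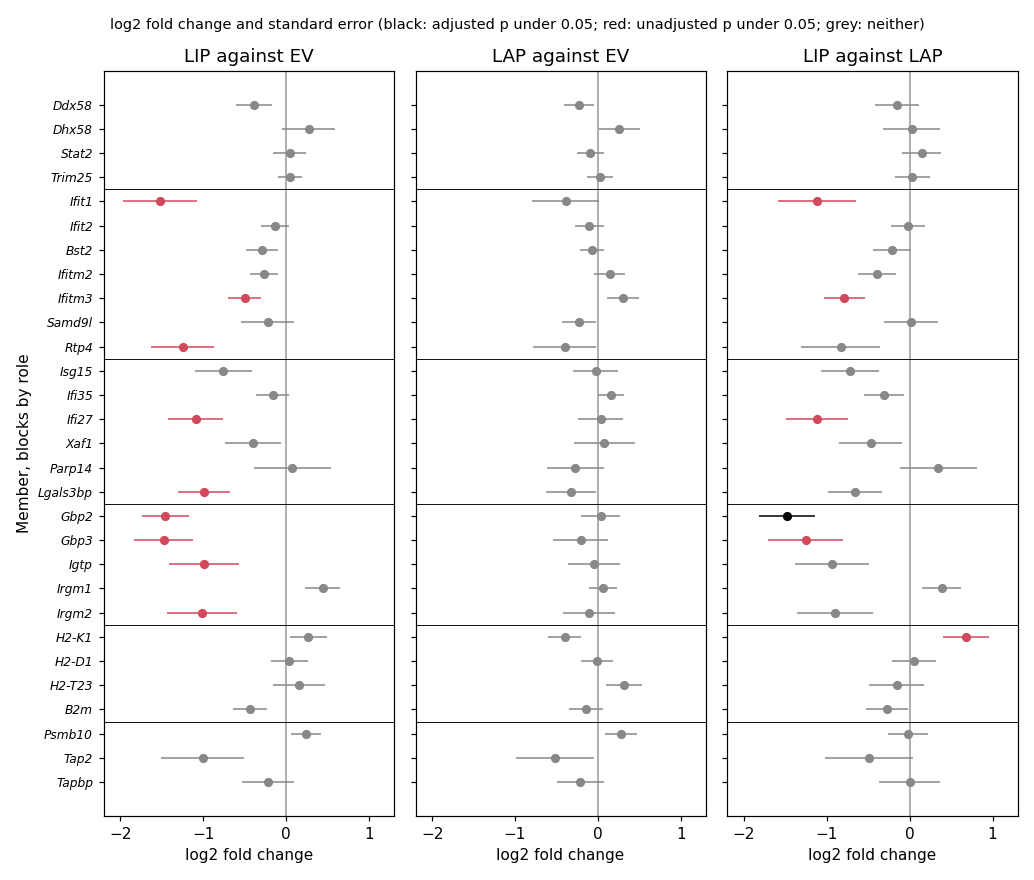
log2 fold change (horizontal axis) and its standard error of the 29 members averaging at least 20 counts (vertical axis, lines between roles) in LIP against EV, LAP against EV and LIP against LAP. Black marks an adjusted p under 0.05 (Gbp2 in LIP against LAP), red an unadjusted p under 0.05 and grey neither. In LAP against EV all 29 genes are grey, and the values in LIP against EV run from -1.52 to 0.44.

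Promoters of 36 of the 46 genes were found in the RefSeq table for GRCm38.p6, each from 250 bases before to 50 after the start of transcription. The letters GAAANNGAA, the core of the interferon-stimulated response element, stood on either strand in 20 of the 36 promoters (55.6%), against 9.76% of the promoters of all 27025 genes. A STAT site, TTCNNNGAA, which may overlap that core, stood in 8 (22.2%, against 9.55%) and a loose C/EBP site, TTGCNNAA, in 2 (5.56%, against 12.2%), those of Gbp3 and H2-T23. In LIP against EV the median log2 fold change was -0.46 over the 20 genes with the response element core, 16 of them below 0, and -0.19 over the 16 without it, 12 of them below 0. A match of letters describes the sequence and does not show that a factor binds there. The 200 bases before the start are printed for Gbp2, the gene with an adjusted p under 0.05, for Gbp3 and Ifit1, which lay lower in LIP at an unadjusted p under 0.05, for Isg15, a standard interferon-stimulated gene, and for Irgm1, whose value in LIP lay above EV. Capitals mark the response element core on either strand, merged where copies overlap. The positions are chr3:142620463-142620662 on the plus strand for Gbp2, chr3:142559844-142560043 on the plus strand for Gbp3, chr19:34640689-34640888 on the plus strand for Ifit1, chr4:156200819-156201018 on the minus strand for Isg15 and chr11:48871421-48871620 on the minus strand for Irgm1, each written 5′ to 3′ along the gene. For Gbp3 the promoter table holds more than 1 start of transcription, and the first of them was used, which lies inside the span of the gene given below, so the last bases of that stretch overlap the gene.
Gbp2: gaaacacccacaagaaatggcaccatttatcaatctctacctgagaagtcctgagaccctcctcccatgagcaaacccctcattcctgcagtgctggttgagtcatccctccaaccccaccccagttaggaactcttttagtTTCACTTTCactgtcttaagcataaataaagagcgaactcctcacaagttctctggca
Gbp3: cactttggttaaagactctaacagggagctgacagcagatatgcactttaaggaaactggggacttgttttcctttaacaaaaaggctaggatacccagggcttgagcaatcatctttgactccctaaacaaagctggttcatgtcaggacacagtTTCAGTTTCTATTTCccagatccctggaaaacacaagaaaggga
Ifit1: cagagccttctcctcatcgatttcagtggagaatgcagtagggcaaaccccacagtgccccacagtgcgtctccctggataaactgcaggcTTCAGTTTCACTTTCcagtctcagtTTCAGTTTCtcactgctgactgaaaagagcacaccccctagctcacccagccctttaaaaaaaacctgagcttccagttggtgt
Isg15: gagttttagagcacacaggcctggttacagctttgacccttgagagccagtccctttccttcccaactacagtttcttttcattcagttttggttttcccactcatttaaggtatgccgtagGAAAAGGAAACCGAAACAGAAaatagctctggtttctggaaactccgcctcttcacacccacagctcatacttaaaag
Irgm1: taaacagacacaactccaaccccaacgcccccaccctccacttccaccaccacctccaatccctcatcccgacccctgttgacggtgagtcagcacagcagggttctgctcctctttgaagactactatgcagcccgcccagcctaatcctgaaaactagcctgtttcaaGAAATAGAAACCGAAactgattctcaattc
Gbp2 held 1 copy of the core, Gbp3 and Irgm1 2 each, and Ifit1 and Isg15 3 each. Irgm1 thus carried the same letters as the genes that lay lower in LIP.

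The interferon-inducible GTPases, a class of which some members coat and disrupt the vacuoles of intracellular pathogens, held the largest share of lower genes among the roles. In LIP against EV, 4 of the 6 were lower at an unadjusted p under 0.05 (Gbp2, Gbp3, Irgm2 and Igtp), 3 of them without overlap. Over all genes 6.75% were lower at that level and 8.83% were lower without overlap. The median log2 fold change of the 5 better counted GTPases was -1.02 against EV and -0.93 against LAP. In LAP against EV it was -0.05.

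Gbp2, a guanylate-binding protein (chr3:142620663-142638008), had 3.33, 2.92 and 4.16 CPM in the EV libraries, 3.79, 4.13 and 2.81 in the LAP libraries and 1.14, 1.18 and 1.45 in the LIP libraries. All 3 LIP libraries lay below all 6 others. The log2 fold change in LIP against LAP was -1.48 (SE 0.335), with an adjusted p of 0.0386 by edgeR. The exact permutation test (two-sided) gave p = 0.1, which is the smallest that 3 libraries against 3 allow. That test exchanged the libraries freely and did not use the replicate numbers. With the replicate block the adjusted p was 9.47e-05. Over 7 other settings it lay between 9.47e-05 and 0.155 and passed in 4, and with 1 library left out it lay between 0.00613 (without LIP 3) and 0.185 (without LAP 2) and passed in 2 of 6, the other being without LAP 3. Against EV the log2 fold change was -1.46 (SE 0.286) with an adjusted p of 0.0536 by edgeR, and 0.000863 by DESeq2. In LAP against EV it was 0.03 (SE 0.240).

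Gbp3, the neighbour of Gbp2 (chr3:142560016-142573213), had 1.24, 1.25 and 1.03 CPM in EV, 1.51, 0.826 and 0.703 in LAP and 0.449, 0.360 and 0.452 in LIP. Here too the LIP libraries lay below all others, with a log2 fold change of -1.47 (SE 0.357) against EV and -1.26 (SE 0.454) against LAP. The adjusted p was 0.109 and 0.298 by edgeR, so neither passed. Irgm2, an immunity-related GTPase, had 1.804, 1.33 and 1.93 CPM in EV, 2.31, 1.29 and 1.11 in LAP and 0.816, 0.360 and 1.32 in LIP. LIP 3 lay just under the lowest EV library and above LAP 2 and LAP 3, and the log2 fold change was -1.02 (SE 0.422) against EV, which became -0.66 without LIP 2 and -1.54 without LIP 3. Igtp, next to it on chromosome 11, had a log2 fold change of -0.99 against EV. Irgm1, a regulator of the other immunity-related GTPases, was the exception of the group. It had 81.0, 87.7 and 62.5 CPM in EV, 83.1, 72.2 and 87.7 in LAP and 79.9, 95.9 and 138 in LIP, with a log2 fold change of 0.44 (SE 0.209, unadjusted p = 0.0552 in edgeR's fit across all genes) against EV. LIP 2 and LIP 3 lay above all EV and LAP libraries, while LIP 1 lay among them.

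**Figure D3:**
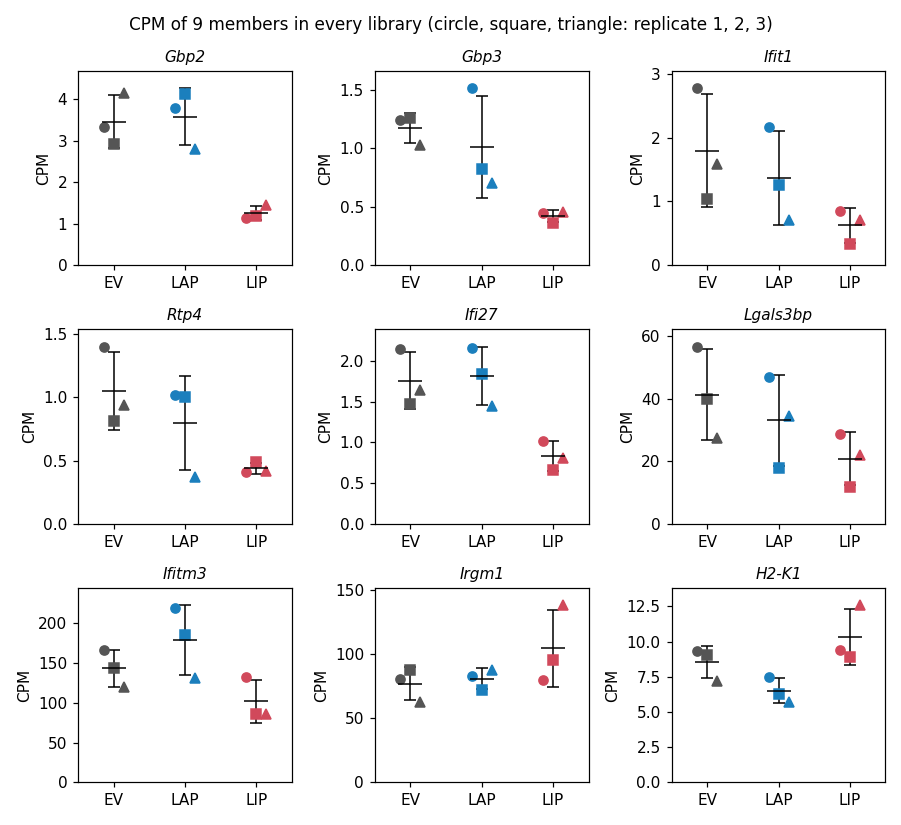
CPM (vertical axes, from 0) of 9 members in the EV, LAP and LIP libraries, circles, squares and triangles for replicates 1, 2 and 3, with the mean and SD of each group (n = 3). For Gbp2 and Gbp3 the 3 LIP points lie below all 6 others, for Lgals3bp and Ifitm3 they overlap with EV, and for Irgm1 and H2-K1 the highest point is LIP 3 with 138 and 12.6 CPM.

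Among the antiviral effectors, 12 of 13 genes were below 0 in LIP against EV. At an unadjusted p under 0.05, 4 were lower (Ifit1, Oasl2, Rtp4 and Ifitm3), beside 6.75% of all genes. Ifit1, which binds viral RNA that lacks the host's cap methylation, had 2.77, 1.03 and 1.58 CPM in EV, 2.16, 1.26 and 0.703 in LAP and 0.857, 0.328 and 0.711 in LIP. The LIP libraries lay below the EV libraries, but LAP 3 lay within their range. The log2 fold change was -1.52 (SE 0.449, adjusted p = 0.199 by edgeR) against EV, -0.39 (SE 0.406) for LAP against EV and -1.12 (SE 0.472, adjusted p = 0.441) for LIP against LAP. Without EV 1 the first of these was -1.06. Ifit2 and Ifit3, of the same family and on the same stretch of chromosome 19, were not past an unadjusted p of 0.05 in any comparison.

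Rtp4, a chaperone of receptors that also limits virus replication, had 1.4, 0.812 and 0.937 CPM in EV, 1.02, 1.01 and 0.370 in LAP and 0.408, 0.491 and 0.420 in LIP. The 3 LIP libraries were close together and below EV, with LAP 3 lower still, and the log2 fold change against EV was -1.25 (SE 0.382, adjusted p = 0.215 by edgeR). Rtp4 lies on chromosome 16, whose genes as a whole were lower in LIP. Ifitm3, which keeps viruses from fusing with endosomes, was well counted. It had 167, 144 and 120 CPM in EV, 219, 185 and 132 in LAP and 133, 86.5 and 86.1 in LIP. LIP 1 lay above EV 3 and LAP 3, so the groups overlapped, and the log2 fold change was -0.50 (SE 0.199, adjusted p = 0.383 by edgeR) against EV and -0.79 (SE 0.248, adjusted p = 0.187) against LAP. Within replicate numbers LIP was lower than LAP in all 3 pairs, and with the replicate block Ifitm3 fell by 0.79 on the log2 scale with an adjusted p of 0.000679. Oasl2, of the 2′-5′-oligoadenylate synthetase family, had 40, 9 and 15 counts in EV and 5, 2 and 6 in LIP, with a log2 fold change of -2.12 that rests on few reads.

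Of the ISG15 system and the other interferon-stimulated genes, 7 of 8 were below 0 in LIP against EV. At an unadjusted p under 0.05, 2 were lower (Ifi27 and Lgals3bp), beside 6.75% of all genes. Isg15, the ubiquitin-like protein that is linked to other proteins after interferon, had 3.73, 1.85 and 2.99 CPM in EV, 2.99, 2.84 and 2.66 in LAP and 1.88, 1.08 and 2.13 in LIP. LIP lay below all LAP libraries but overlapped with EV 2. The log2 fold change was -0.75 (SE 0.349, adjusted p = 0.457 by edgeR) against EV and -0.72 (SE 0.346, adjusted p = 0.541) against LAP. Ifi27, a small mitochondrial and nuclear-envelope protein, had 2.15, 1.48 and 1.64 CPM in EV, 2.16, 1.83 and 1.44 in LAP and 1.02, 0.655 and 0.807 in LIP. The LIP libraries did not overlap with either group, with a log2 fold change of -1.09 (SE 0.331, adjusted p = 0.212 by edgeR) against EV and -1.12 (SE 0.376, adjusted p = 0.244) against LAP. With the replicate block it fell by 1.11 against LAP with an adjusted p of 0.0222. In RefSeq the gene overlaps Ifi27l2a, so reads of the pair may be mixed, which was not tested.

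Lgals3bp, a secreted glycoprotein that binds galectins, varied widely within each group. It had 56.6, 39.9 and 27.6 CPM in EV, 47.0, 18.0 and 34.4 in LAP and 28.7, 11.7 and 22.2 in LIP. LIP was the lowest of the 3 groups at each replicate number, while the groups themselves overlapped. The log2 fold change was -0.99 (SE 0.310, adjusted p = 0.231 by edgeR) against EV and -0.66 (SE 0.329, adjusted p = 0.569) against LAP. With the replicate block it fell by 0.64 against LAP with an adjusted p of 0.0175.

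The sensors and signalling genes did not separate the groups. None of the 9 was past an unadjusted p of 0.05 in LIP against EV, and the 4 better counted ones had log2 fold changes between -0.39 and 0.27. Ddx58, which encodes the RNA sensor RIG-I, had 29.1, 27.8 and 28.4 CPM in EV, 28.1, 18.4 and 26.4 in LAP and 17.3, 17.9 and 29.9 in LIP. LIP 1 and LIP 2 lay below all EV libraries and LIP 3 above them, for a log2 fold change of -0.39 (SE 0.216). Stat2, a subunit of the transcription factor that type I interferon activates, had 24.4, 23 and 29.8 CPM in EV, 24.1, 23 and 25.7 in LAP and 20.9, 25.6 and 33.0 in LIP, for a log2 fold change of 0.04 (SE 0.200). Trim25, the ligase that activates RIG-I, had 70.3, 62.7 and 65 CPM in EV, 68.7, 58 and 75.6 in LAP and 72.7, 63.4 and 68.4 in LIP, with 0.05 (SE 0.145) in LIP against EV. Dhx58, a further RNA helicase of the RIG-I family, had 1.87, 1.77 and 2.02 CPM in EV, 1.97, 2.66 and 2.22 in LAP and 1.71, 3.28 and 1.84 in LIP, for a log2 fold change of 0.27 (SE 0.317), which turned to -0.09 without LIP 2.

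The MHC class I chains were mixed in LIP. None of the 4 was past an unadjusted p of 0.05 in LIP against EV. Of the 4, 3 were above 0, with H2-D1 only at 0.04 (SE 0.223), and the median log2 fold change of the 4 was 0.10. The LIP libraries differed. The median deviation of the 4 from their mean over 9 libraries was -0.02 in LIP 1, -0.45 in LIP 2 and 0.52 in LIP 3. H2-K1, a classical class I heavy chain (chr17:33996012-34000619), had 9.36, 9.04 and 7.24 CPM in EV, 7.49, 6.29 and 5.73 in LAP and 9.43, 8.88 and 12.6 in LIP. All LIP libraries lay above all LAP libraries, with a log2 fold change of 0.68 (SE 0.275, adjusted p = 0.398 by edgeR and 0.0543 with the replicate block), while against EV it was 0.27 (SE 0.223). B2m, the shared light chain, had 437, 519 and 348 CPM in EV, 412, 474 and 302 in LAP and 387, 262 and 318 in LIP, and its log2 fold change of -0.43 (SE 0.203, adjusted p = 0.464 by edgeR) against EV was opposite in sign to that of H2-K1. H2-T23, a non-classical chain recognised by natural killer cells, had 4.39, 4.06 and 3.63 CPM in EV, 5.27, 5.71 and 4.18 in LAP and 3.84, 2.82 and 6.75 in LIP, for a log2 fold change of 0.15 (SE 0.314) against EV that turned to -0.27 without LIP 3. Class I heavy chains are close copies of each other, so reads may have been split among them or left uncounted, and their single values are uncertain.

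For the immunoproteasome and peptide loading, the counts were mostly too low to read. None of the 6 genes was past an unadjusted p of 0.05 in any comparison. The immunoproteasome subunits Psmb8 and Psmb9 had 10 counts or fewer in every library, with 6, 6 and 9 counts for Psmb8 in EV and 3, 3 and 3 in LIP. Psmb10, the third interferon-inducible subunit, was better counted, with 20.3, 21.5 and 18.6 CPM in EV, 20.01, 32.3 and 21.6 in LAP and 22.5, 27.9 and 21.1 in LIP, and a log2 fold change of 0.24 (SE 0.179) against EV. Tap2, a subunit of the peptide transporter, had 0.529, 0.701 and 1.52 CPM in EV, 0.863, 0.252 and 0.814 in LAP and 0.286, 0.360 and 0.711 in LIP, with a log2 fold change of -1.01 (SE 0.499, adjusted p = 0.497 by edgeR) against EV. EV 3 set most of that difference, since without it the value was smaller, at -0.42. Tapbp, which holds class I chains at the transporter, had 2.15, 1.96 and 1.73 CPM in EV, 2.19, 1.19 and 1.66 in LAP and 1.796, 1.15 and 2.07 in LIP, and its log2 fold change against EV was -0.22 (SE 0.311).

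A further 108 genes of the pathway, listed by their place in it, were examined in the same fits. Of these, 11 were at 0 counts in every library. None passed the adjusted threshold in edgeR in any of the 3 comparisons, and DESeq2 called H2-DMb1 lower in LIP against EV. At an unadjusted p under 0.05, 21 of the 97 tested genes were lower and 1 was higher in LIP against EV, beside 6.75% and 4.23% of all genes. In LAP against EV 2 of 96 were lower, beside 1.34%, and in LIP against LAP 9 of 94 were lower and 2 higher, beside 5.98% and 3.3%. With the replicate block these counts were 5 lower and 2 higher in LAP against EV (2.58% and 3.5% of all genes) and 17 lower and 3 higher in LIP against LAP (9.45% and 5.92%). Past the adjusted threshold with the block, 4 fell (Ifngr2, Il10rb, Psmb5 and Pdia3) and 1 rose (Aim2, on 27 counts or fewer per library) in LIP against LAP, a share near the 4.79% and 1.72% of all genes.

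The ligands themselves were at the limit of detection. Of the 10 interferon genes listed, 6 were at 0 counts in all 9 libraries and none exceeded 4 counts in a library. Ifnb1, the type I interferon that fibroblasts make, had 0, 0 and 1 counts in EV, 0, 0 and 3 in LAP and 0, 2 and 1 in LIP. Ifne reached 4 counts. No difference in interferon transcripts was detectable at this depth.

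The receptors were well counted. Of the 14 genes of the interferon receptors and JAK-STAT pathway, 5 were lower in LIP against EV at an unadjusted p under 0.05. Without overlap with EV, 6 were lower. Over all genes these shares were 6.75% and 8.83%. Ifnar1, a chain of the type I interferon receptor, had 168, 178 and 155 CPM in EV, 174, 159 and 171 in LAP and 136, 102 and 145 in LIP, for a log2 fold change of -0.38 (SE 0.168, adjusted p = 0.435 by edgeR) against EV. Ifnar2, its partner, had 25.9, 23.6 and 22.9 CPM in EV, 30.9, 24.7 and 24.4 in LAP and 21.6, 15.7 and 17 in LIP, for -0.42 (SE 0.184, adjusted p = 0.436 by edgeR). All LIP libraries lay below all others for both chains. Ifngr2, a chain of the interferon gamma receptor, had 161, 174 and 159 CPM in EV, 176, 170 and 178 in LAP and 132, 106 and 114 in LIP. Its log2 fold change was -0.49 (SE 0.152, adjusted p = 0.224 by edgeR) against EV and -0.56 (SE 0.212, adjusted p = 0.345) against LAP, and with the replicate block it fell by 0.56 against LAP with an adjusted p of 0.0291. Il10rb, a chain shared by the receptors of interferon lambda and interleukin-10, had 71.9, 81.8 and 69.5 CPM in EV, 74.9, 92.2 and 85.5 in LAP and 57.1, 40.8 and 56.3 in LIP. It fell by 0.70 against LAP with the replicate block, with an adjusted p of 0.00397. Ifngr1, the other interferon gamma receptor chain, had 44.6, 46.6 and 33.45 CPM in EV, 51.6, 53.1 and 38.0 in LAP and 41.7, 31.5 and 35.5 in LIP, and its groups overlapped (-0.20, SE 0.181). Socs1, the feedback inhibitor of JAK kinases, had a log2 fold change of -0.98 against EV (SE 0.401, adjusted p = 0.395 by edgeR).

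**Figure D4:**
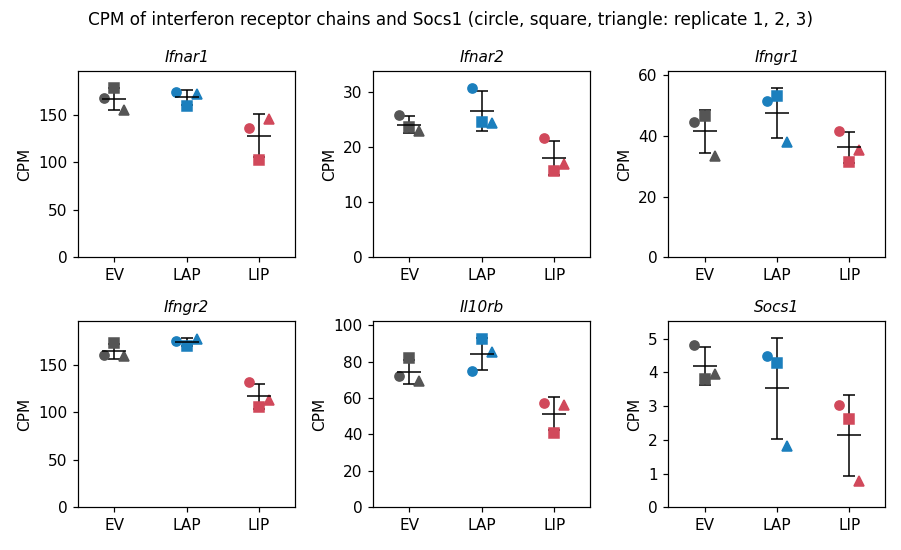
CPM (vertical axes, from 0) of 5 receptor chains and Socs1 in the EV, LAP and LIP libraries, circles, squares and triangles for replicates 1, 2 and 3, with the mean and SD of each group (n = 3). For Ifnar1, Ifnar2, Ifngr2 and Il10rb the LIP points lie below all EV and LAP points, while Ifngr1 overlaps.

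These 4 receptor chains lie side by side on chromosome 16, Ifnar2 at chr16:91372783-91405589, Il10rb at chr16:91406157-91425834, Ifnar1 at chr16:91485032-91510523 and Ifngr2 at chr16:91547059-91564007. Ifngr1, whose groups overlapped, lies on chromosome 10, and Socs1 lies on chromosome 16. The genes of chromosome 16 were lower in LIP as a whole. Over its 323 genes averaging at least 20 counts the median log2 fold change was -0.27 in LIP against EV and -0.36 in LIP against LAP, the lowest of 20 chromosomes in both, with 82.4% and 87.9% of the genes below 0. In LAP against EV it was 0.07. Chromosome 14 followed, with -0.19 and -0.23, and the other chromosomes lay above it. Of the 10 other genes that reach into the 500000 bases on either side of the receptor chains, 9 were below 0 in LIP against EV, with a median of -0.19. The shift was present in each LIP library, with a median deviation of the chromosome 16 genes from their mean over the 9 libraries of -0.10, -0.22 and -0.35 in LIP 1, LIP 2 and LIP 3, against 0.01 to 0.19 in the EV and LAP libraries. Its part in the lower receptor values was not tested.

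**Figure D5:**
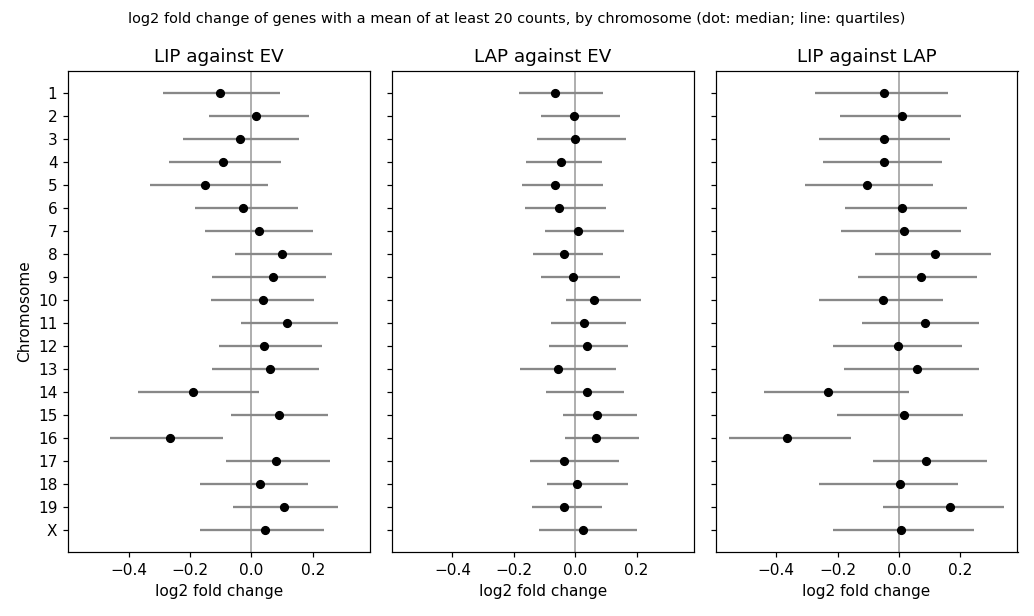
log2 fold change (horizontal axis) of genes averaging at least 20 counts on each chromosome (vertical axis), with the median as a dot and the quartiles as a line, in LIP against EV, LAP against EV and LIP against LAP. Chromosome 16 has the lowest median in both comparisons with LIP (-0.27 and -0.36) and is at 0.07 in LAP against EV.

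Of the 21 pathway genes that were lower in LIP against EV at an unadjusted p under 0.05, 6 lie on chromosome 16, which holds 8 of the 108, and 2 lie on chromosome 14 (Psme1 and Psmb5). Relative to the median of chromosome 16, the log2 fold change against EV was -0.12 for Ifnar1, -0.15 for Ifnar2, -0.22 for Ifngr2 and -0.27 for Il10rb. Among the 46 genes, 1 of the 10 with a lower value at an unadjusted p under 0.05 lies there, Rtp4, which was at -0.98 relative to the chromosome. Gbp2 and Gbp3 lie on chromosome 3, whose median was -0.04. With each gene taken relative to the median of its chromosome, the median of the 29 better counted members was -0.30 in LIP against EV, and 22 of the 29 were below 0, beside -0.29 and 20 without that step.

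Upstream and downstream of the receptors the values were mixed. Of the 11 genes of nucleic acid sensing, 2 were lower and 1 was higher in LIP against EV at an unadjusted p under 0.05. Over all genes 6.75% were lower and 4.23% higher at that level. Mb21d1, the gene of the DNA sensor cGAS, had 11, 8.56 and 9.11 CPM in EV, 10.2, 8.88 and 4.62 in LAP and 7.76, 5.96 and 3.68 in LIP, for a log2 fold change of -0.73 (SE 0.275, adjusted p = 0.345 by edgeR). Of 47 tested interferon-stimulated genes outside the 46, 9 were lower and 0 higher in LIP against EV by unadjusted p, beside the same 6.75% and 4.23%. Of these 47, 32 were below 0, with a median log2 fold change of -0.25. LAP lay close to this, with 38 of 47 below 0 and a median of -0.22 against EV. By unadjusted p 2 were lower in LAP against EV, beside 1.34% of all genes. Without overlap, 7 were lower and 0 higher in LAP against EV, beside 3.61% and 3.96% of all genes. Of these 7, 3 averaged at least 20 counts. In LIP against EV 8 were lower without overlap, 4 of them with that mean, and 1 was higher, beside 8.83% and 6.8% of all genes. In LIP against LAP 44 of these 47 genes could be tested, with a median of 0.01. Slfn8, a Schlafen protein, had the smallest p among them, with 0.529, 0.627 and 0.732 CPM in EV and 0.163, 0.295 and 0.161 in LIP, for -1.58 (SE 0.462, adjusted p = 0.194 by edgeR). Of 13 tested genes of class I presentation outside the 46, 3 were lower in LIP against EV by unadjusted p, beside 6.75% of all genes. Nlrc5, the transactivator of class I genes, had 1.43, 0.886 and 1.44 CPM in EV, 0.956, 1.01 and 0.222 in LAP and 0.571, 0.852 and 0.452 in LIP, for -0.998 (SE 0.379, adjusted p = 0.346 by edgeR) against EV, while H2-K1 was not lower. Psmb5, the constitutive proteasome subunit that an immunoproteasome subunit replaces, had 88.1, 85.9 and 89.7 CPM in EV, 89.7, 129 and 94.4 in LAP and 74.3, 52.1 and 65.4 in LIP. It was at -0.46 (SE 0.163, adjusted p = 0.309 by edgeR) against EV, and with the replicate block it fell by 0.68 against LAP with an adjusted p of 0.00697.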

How the data were processed

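RNA of 9 libraries of Cebpb-ko MEFs (TruSeq RNA kit) was sequenced. The authors deposited raw counts of reads per gene, made per the submitters' processing notes with bcl2fastq 1.8.3, TopHat 1.4.1 and HTSeq 0.5.4 on mm10. The strand setting and the handling of reads with several alignments are not given in the sources used here. Columns were matched to groups by their labels, and 0 columns were left unused.

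Each comparison used its 6 libraries and all genes with at least 1 count in them, TMM factors and edgeR 4.0.16 (R 4.3.3) by the quasi-likelihood test without covariates, with Benjamini-Hochberg adjustment over all genes tested and a threshold of 0.05. SE is the log2 fold change over the square root of F. CPM use TMM factors over all 9 libraries. Totals of 24839139 to 33522082 counts put the floor of 3 counts at 0.0895 to 0.121 CPM, for counting error only. For single genes an exact permutation test (two-sided, smallest p 0.1) was added, without regard to the replicate numbers. The test was tried on simulated counts. Alternatives were DESeq2 1.42.0, DESeq2 size factors, total counts, filterByExpr, all 9 libraries, robust estimation, the replicate number as a block, and each library left out. The original DESeq was not used here.

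Replicate numbers come from the labels. Over 11535 genes, deviations of libraries with the same number correlated at 0.22 to 0.55 in LAP and EV and 0.42 to 0.58 in LIP and LAP. In LIP and EV they correlated at -0.12 to 0.31. The numbers were thus taken to pair LAP with EV and LIP with LAP, but not LIP with EV.

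The 46 genes, their roles and the pathway lists were chosen with earlier results of these data known. Named are members past the threshold and, among those with a mean of at least 20 counts, the 3 of each role with the smallest p in LIP against EV and the 1 in each other comparison, and in each pathway list the gene with the smallest p, with Ifnb1, Ifnar1, Ifnar2, Ifngr1 and Nlrc5 always named. Some items are not reported here. Other genes were named after their values were seen, as was the summary by chromosome chosen. Names that differ in the table were matched as older symbols (Ifi27l1, E330016A19Rik for Mb21d1, Phf11, Il28a, Il28b). Positions and promoters are RefSeq's on GRCm38.p6. Figures were drawn with matplotlib 3.10.9.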

Additional observations from a re-analysis of the deposited data

How the results depend on the processing

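The median log2 fold change of the 46 genes stayed below 0 in LIP against EV and in LIP against LAP under every alternative, and Gbp2 kept its direction in both. With filterByExpr the medians were -0.27 in LIP against EV and -0.30 in LIP against LAP, on fewer genes. Genes lower past the adjusted threshold in LIP against EV numbered 1 with DESeq2 and 1 with all 9 libraries in the fit. In LIP against LAP they numbered 0 with total counts, 0 with filterByExpr and 0 with robust estimation, and the cause was not tested. At an unadjusted p under 0.05, total counts and the fit of all 9 libraries each gave 1 higher gene in LIP against EV. The fit of all 9 libraries gave 11 lower genes in LIP against LAP. In LAP against EV total counts gave 1 lower and filterByExpr 0 higher genes. The share of all genes called in these fits is not given here, so these counts have no share to be read against. Over the alternatives that keep all libraries, the named genes gave 388 values on the same side of the threshold. These kept their direction or, where the sign turned, changed by less than their SE. Another 8 values came to pass the threshold and 3 no longer passed.

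With the replicate block, 3 genes passed as lower in LIP against EV (Gbp2, Ifit1 and Lgals3bp) and the median was -0.55, where the numbers were not taken to pair the libraries (correlations of -0.12 to 0.31). The block gave 4 genes past the threshold as lower in LIP against LAP. By unadjusted p (under 0.05) it gave 11 lower and 2 higher there, beside 9.45% and 5.92% of all genes. In LAP against EV it gave 2 lower at that level, beside 2.58%. It moved no other count of the 46 genes by over 1.5 times. Over all genes it moved the calls from 60 to 402 lower and from 12 to 65 higher in LIP against EV, from 152 to 871 and from 38 to 312 in LIP against LAP, and from 6 to 30 and from 5 to 24 in LAP against EV.

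With 1 library left out, LIP against EV gave 0 to 2 lower and 0 to 0 higher genes past the threshold, 6 to 16 lower and 0 to 1 higher by unadjusted p (under 0.05), and medians of -0.76 to -0.37. LAP against EV gave 0 to 0 lower and 0 to 1 higher, 0 to 4 lower and 0 to 2 higher, and -0.23 to 0.054. LIP against LAP gave 0 to 1 lower and 0 to 0 higher, 2 to 11 lower and 0 to 1 higher, and -0.58 to -0.24. For fits whose share of all genes is not stated above, none is given here. Genes at a few counts per library, among them the interferons, Irf7, Mx1, Mx2, Psmb8 and Psmb9, are limited by depth.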

Other observations

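Some pathway genes outside the 46 had low counts throughout and are named here after their values were seen. H2-DMb1, a chain of the chaperone that loads peptides on MHC class II molecules, had 21, 12 and 48 counts in the EV libraries, 16, 9 and 16 in the LAP libraries and 2, 2 and 7 in the LIP libraries. Its log2 fold change in LIP against EV was -2.69 (SE 0.613) with an adjusted p of 0.0925 by edgeR. The other class II genes that could be tested did not pass an unadjusted p of 0.05. Oas1a, a synthetase of the 2′-5′-oligoadenylates that activate RNase L, was lower than EV in both LAP and LIP, with 17, 9 and 47 counts in EV, 8, 1 and 8 in LAP and 7, 0 and 6 in LIP. The log2 fold change was -1.95 (SE 0.619, adjusted p = 0.918 by edgeR) in LAP against EV and -2.26 (SE 0.770, adjusted p = 0.284) in LIP against EV. Aim2, a sensor of cytosolic DNA, went the other way, with 11, 5 and 6 counts in EV, 6, 2 and 3 in LAP and 9, 27 and 16 in LIP. Against EV its log2 fold change was 1.32 (SE 0.506, adjusted p = 0.351 by edgeR), and against LAP, with the replicate block, it rose by 2.17 with an adjusted p of 0.0136.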
